A study of Nematostella vectensis with 8 samples.

Results

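NvfoxE-like is the forkhead-family transcription factor gene that was targeted by short hairpin RNA (shRNA) in gastrulae of the starlet sea anemone Nematostella vectensis. Its rows were chosen by transcript name, as every row whose name starts with NV2t025991, the gene model NV2.25991. This rule found 1 transcript of 35819, and so 1 gene of 24520. The question was how deeply the gene was knocked down in each pool of embryos, and how that depth stood beside the change of other genes. Messenger RNA of whole embryos was sequenced in 8 libraries. In 4 of them wildtype embryos had been injected with NvfoxE-like shRNA, for which the study's methods name 2 hairpins in combination, and in 4 the embryos received a scrambled control RNA. All embryos were raised at 24 °C and collected 28 hours after fertilization, and about 1000 embryos were pooled for each library. The replicates are numbered 1 to 4 in both groups.

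Forkhead factors bind DNA through a winged-helix domain and act in many animals as selectors of cell identity. In cnidarians such as Nematostella, cnidocytes are the stinging cells. Each builds an explosive capsule from minicollagens and related proteins, and in the gastrula these cells differentiate scattered among the other cells of the ectoderm. An injected shRNA is processed into small RNAs that direct the cleavage of the matching messenger RNA, so the sequencing reads measure what messenger RNA was left. In whole embryos, fewer cells that express a gene and less RNA per cell cannot be told apart.

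The libraries held between 18656270 and 26073612 estimated counts, which are Salmon's expected numbers of reads. Replicates 1 and 2 carry the library name prefix LA19_2 and replicates 3 and 4 carry LA20_3, with 2 libraries of each group under each prefix. The labels give a single batch value for all 8 libraries, and the meaning of the prefix is not given. The labelled tissue is the whole embryo, and its cnidocytes were checked by 12 published cnidocyte markers, of which 10 lay above 3 counts in all 8 libraries. The other two, NEP3 and NEP8, were above 3 counts in 4 and 3 libraries. No markers of other cell types were used here.

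NvfoxE-like had a single annotated transcript, NV2t025991001.1, with a length of 1760 bases. It therefore held 100% of the gene in every library, and no share between transcripts could be compared. Its estimated counts were 266.311, 116, 332.317 and 330 in shRNA replicates 1 to 4. In control replicates 1 to 4 they were 588.886, 308.002, 1175.05 and 1142.67. The lowest control, replicate 2, thus had fewer reads than shRNA replicates 3 and 4. Salmon divides a read that matches several transcripts among them, and the count was whole within 0.01 of a read in 3 of the 8 libraries. In the other libraries a part of up to 0.33 of a read was left over, so at least some reads were divided with other transcripts, and how many is not known from these values.

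Relative to library size, NvfoxE-like was lower in shRNA-injected embryos than in the same-numbered control in all 4 replicates. Levels are given as CPM, the counts relative to library size, after TMM scaling, which corrects for the composition of a library. They were 10.9, 7.10, 11.5 and 15.0 CPM in shRNA replicates 1 to 4. The controls measured 29.7, 15.8, 45.5 and 46.7 CPM. Each shRNA library was below each control library, but the highest shRNA pool and the lowest control pool nearly met. Their 95% Poisson intervals, which cover counting error only, were 13.5 to 16.8 CPM for shRNA replicate 4 and 14.1 to 17.7 CPM for control replicate 2. The means were 11.1 ± 3.25 CPM (SD, n = 4) and 34.5 ± 14.6 CPM (SD, n = 4).

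**Figure D1:**
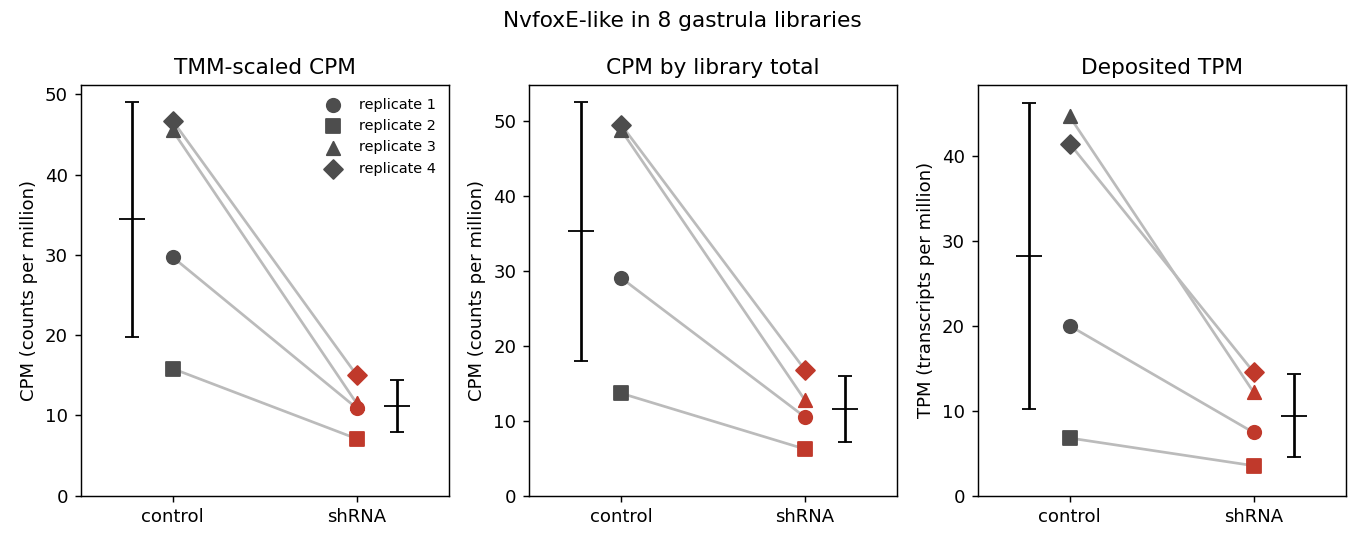
Level of NvfoxE-like in the 4 control and 4 shRNA libraries as TMM-scaled CPM, as CPM by library total and as deposited TPM (vertical axes, from 0). Symbols mark the replicate number, grey lines join same-numbered libraries, and black bars give the mean ± SD of a group. Every line falls, and the groups are apart only in the first panel, where the highest shRNA library is at 15.0 and the lowest control library at 15.8.

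An exact two-sided permutation test of the mean log2 CPM over all 70 assignments, which ignores the pairing by number, gave a difference of -1.55 with p = 0.0286, the smallest p it allows. Respecting the pairing, exact sign flips of the 4 log2 ratios yielded p = 0.125, the smallest they can give, so this test could not have passed 0.05. Complete separation of the groups in this direction was seen for 153 of the 19002 genes tested (0.805%). edgeR's quasi-likelihood test without a block put the log2 fold change at -1.63 ± 0.40 (SE), with 0.00286 as the unadjusted and 1.00 as the Benjamini-Hochberg adjusted p. NvfoxE-like was therefore not called, and neither was any other gene. Of the 19002 genes tested, 233 were lower and 78 higher at an unadjusted p under 0.05. Together they are a smaller share than the 0.05 of genes that chance alone would give. DESeq2 without a block called 47 genes lower (0.224%) and 9 higher (0.0429%), and NvfoxE-like was not among them. With the replicate number as a block, which compares each knockdown pool with its own control, the log2 fold change was -1.57 ± 0.14 (SE) and edgeR's adjusted p was 0.000539. In that fit 203 genes were called lower (1.07%) and 40 higher (0.211%) at an adjusted p of at most 0.05 and a fold change of at least 1.5. NvfoxE-like was the gene ranked 30 by p, and 75 of the 203 had a larger fall than the targeted gene itself. DESeq2 with the block called it too, among 262 lower genes (1.3%) and beside 66 higher ones (0.329%). At the transcript level, over 25102 transcripts, the blocked edgeR fit put it at -1.57 ± 0.15 (SE), where the adjusted p was 0.0836. The transcript was not called there, where 19 transcripts were called lower (0.0757%).

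The separation of the groups depended on the scale. By library totals alone, shRNA replicate 4 (16.8 CPM) was above control replicate 2 (13.7 CPM), and the exact permutation p was 0.0571 for a difference of -1.52 on the log2 scale. In deposited TPM, which is scaled by transcript length and to a common total within a library, the shRNA pools measured 7.43, 3.53, 12.2 and 14.6. The control pools measured 19.99, 6.78, 44.6 and 41.4 TPM. Shown this way, 3 of the 4 shRNA pools exceeded control replicate 2, and the exact permutation test gave p = 0.143. Replicate 2 also stood apart in the makeup of its TPM. Transcripts shorter than 500 bases took 29.0% of all TPM in shRNA replicate 2 and 31.8% in control replicate 2, and between 16.7% and 24.8% in the other 6 libraries. The part of this difference in the TPM values of NvfoxE-like was not tested.

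Ratios to another gene within the same library do not depend on how libraries are scaled. They were taken after the data had been seen, to paxA and znf845, the factors of the known cnidocyte program, and to ATF2-like1, a transcription factor gene of similar level. By TPM, the ratio of NvfoxE-like to paxA was 0.319, 0.360, 0.382 and 0.345 in shRNA replicates 1 to 4. In the controls it was 0.916, 1.42, 1.01 and 1.01. The groups were far apart on this measure, with 0.352 ± 0.026 (SD, n = 4) against 1.09 ± 0.23 (SD, n = 4). To ATF2-like1 the ratio lay between 0.311 and 0.527 in shRNA pools and between 1.11 and 1.23 in control pools, again without overlap. To znf845 it ran from 0.151 to 0.560 in shRNA pools and from 0.546 to 1.04 in controls, so that shRNA replicate 2 just exceeded control replicate 3. All 3 reference genes, like NvfoxE-like, were lowest in control replicate 2 and higher in both LA20_3 controls than in both LA19_2 controls. Ratios to factors without that order were not taken, so how far the separation depends on the choice of reference was not tested. The exact permutation p was 0.0286 for paxA, 0.0286 for ATF2-like1 and 0.0571 for znf845, and 0.0429 for the first pair and 0.0571 for the last after Benjamini-Hochberg adjustment over these 3 ratios. In the blocked fit, the log2 fold changes of the reference genes were 0.05 ± 0.18 (SE) for paxA, 0.02 ± 0.12 (SE) for znf845 and -0.14 ± 0.09 (SE) for ATF2-like1, none of them called. The mean for paxA hides opposite changes. Its shRNA pool exceeded the control in replicate 2 (46.4 against 26.1 CPM) and fell short of it in replicate 3 (70.7 against 105.6 CPM). Between same-numbered libraries its log2 change had an SD of 0.58, and the median gene had 0.28. How far this shaped the ratios to paxA was not tested. For paxA after this knockdown, the paper's text reports minimal disruption and a figure legend a slight increase. Both refer to a figure of embryos scored by phenotype, not to sequencing. From its sequencing the paper reports no interaction between NvfoxE-like and paxA.

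The remaining level was taken in each replicate. Relative to the same-numbered control, 36.7% of NvfoxE-like remained in replicate 1 (95% exact binomial interval of the counts 31.7% to 42.5%). In replicate 2 it was 44.9% (35.9% to 55.7%), in replicate 3 it was 25.3% (22.4% to 28.6%), and in replicate 4 it was 32.2% (28.4% to 36.4%). The mean was 34.8 ± 8.19% (SD, n = 4). The remaining share was lowest in replicate 3, whose interval did not overlap those of replicates 1 and 2. The other 4 of the 6 pairs of intervals overlapped, including replicate 3 against replicate 4. These intervals hold counting error only and not the spread between pools of embryos, so with 1 pair per replicate a difference in depth between replicates was not tested. The summed level of the 12 cnidocyte markers also fell short of the control most in replicate 3 (729 against 1195 CPM). Per summed marker level, 43.4%, 47.1%, 41.5% and 43.7% of NvfoxE-like remained in replicates 1 to 4, with a mean of 43.9 ± 2.32% (SD, n = 4). The replicates were thus much closer on this measure than by CPM, and replicate 3 moved the most, from 25.3% to 41.5%. The marker sum is itself not free of the knockdown. In the blocked fit 4 of the 12 markers (ncol1, ncol4, mcol1 and NEP3-like) were called lower, as were 1.07% of all genes tested. Ngal was also lower in all 4 pairs (blocked log2 fold change -0.54, edgeR adjusted p = 0.0256) and missed only the fold limit. The sum rests most on ncol3 and Ngal, with control means of 517 and 417 CPM. The 4 log2 ratios of NvfoxE-like by CPM had an SD of 0.35, with 58.9% of genes tested below it. By TPM the order was the same, with 37.2%, 52.0%, 27.3% and 35.1% remaining. Of the 19002 genes tested, 1915 (10.1%) were lower in all 4 pairs, and 207 (1.09%) were lower by at least 1.5-fold in each of the 4 pairs, as NvfoxE-like was.

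**Figure D2:**
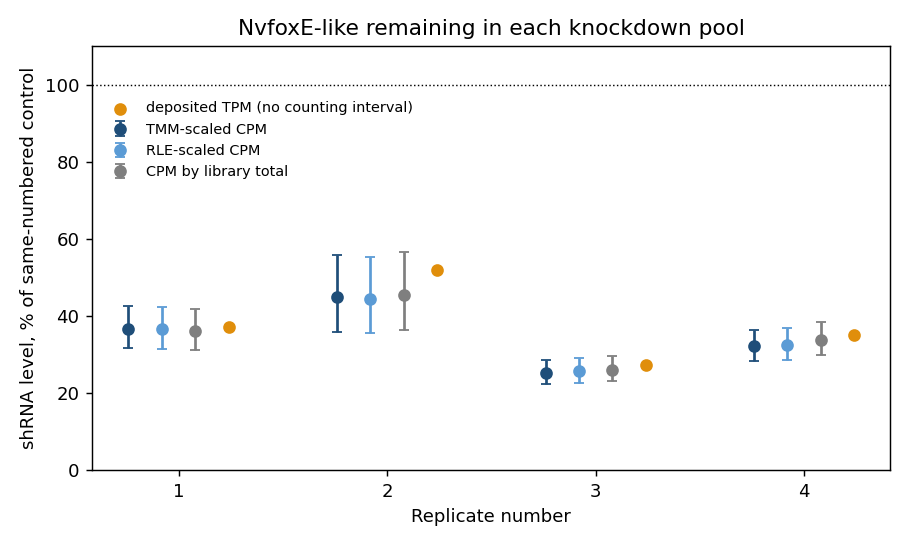
NvfoxE-like in each shRNA pool as a percent of the same-numbered control (vertical axis) for replicates 1 to 4 (horizontal axis). Colours give the scaling, bars are 95% exact binomial intervals for counting error only, and the dotted line marks 100%. Replicate 3 is lowest and replicate 2 highest on each of the 4 scales.

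By library name prefix, a mean of 40.8% remained in replicates 1 and 2 and of 28.8% in replicates 3 and 4. The blocked log2 fold change was -1.31 ± 0.20 (SE) within LA19_2 and -1.80 ± 0.18 (SE) within LA20_3. The difference between the prefixes was -0.46 ± 0.54 (SE) on the log2 scale in edgeR's interaction test, with an adjusted p of 1.00. With the replicate block it was -0.50 ± 0.25 (SE), with a 95% interval of -1.05 to 0.06 and an adjusted p of 1.00 in edgeR, where 4 genes were called lower (0.0211%) and 1 higher (0.00526%). A difference in knockdown between prefixes was thus not resolved, since the interval includes 0. Without control replicate 1 the unblocked difference was -0.99, and without control replicate 2 it was -0.08.

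In control gastrulae NvfoxE-like had a mean of 28.2 ± 17.98 TPM (SD, n = 4), which compares genes per length. It ranked 3896 among 23327 genes with any TPM, so that 16.7% of genes were higher, and the median gene was at 4.48 TPM. In shRNA-injected embryos its mean of 9.42 ± 4.92 TPM (SD, n = 4) ranked 8927 among 23359 genes. From pool to pool the rank moved between 3026 and 6863 in controls and between 7655 and 9722 in shRNA pools, without overlap. By rank, unlike by TPM itself, control replicate 2 was still above every shRNA pool.

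Among the 16 transcription factor genes of a published collection of cnidocyte genes, NvfoxE-like was at place 5 by mean control TPM. Above it were foxA, a forkhead gene known in bilaterians for its part in endoderm and pharynx, at 134 ± 12.4 TPM, and znf845, a zinc finger gene of early cnidocyte development, at 42.9 ± 35.7 TPM. The nuclear receptor gene coup-like1 at 42.2 ± 10.2 TPM and the HMG-box gene sox2 at 34.0 ± 17.7 TPM were also above it (all SD, n = 4). Next below were paxA, a paired-box gene of the cnidocyte program, at 28.0 ± 18.4 TPM and ATF2-like1 at 24.0 ± 15.1 TPM. The other factors ranged from coup-like2 at 12.1 TPM down to myc5 at 0.31 TPM. NvfoxE-like was below foxA, coup-like1 and sox2 in 4 of 4 control pools, above ATF2-like1 in 4 of 4, above paxA in 3 of 4 and above znf845 in 2 of 4. The order of NvfoxE-like, paxA and znf845 was therefore not fixed across pools, and the ranges of neighbours from znf845 down to ATF2-like1 overlapped.

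**Figure D3:**
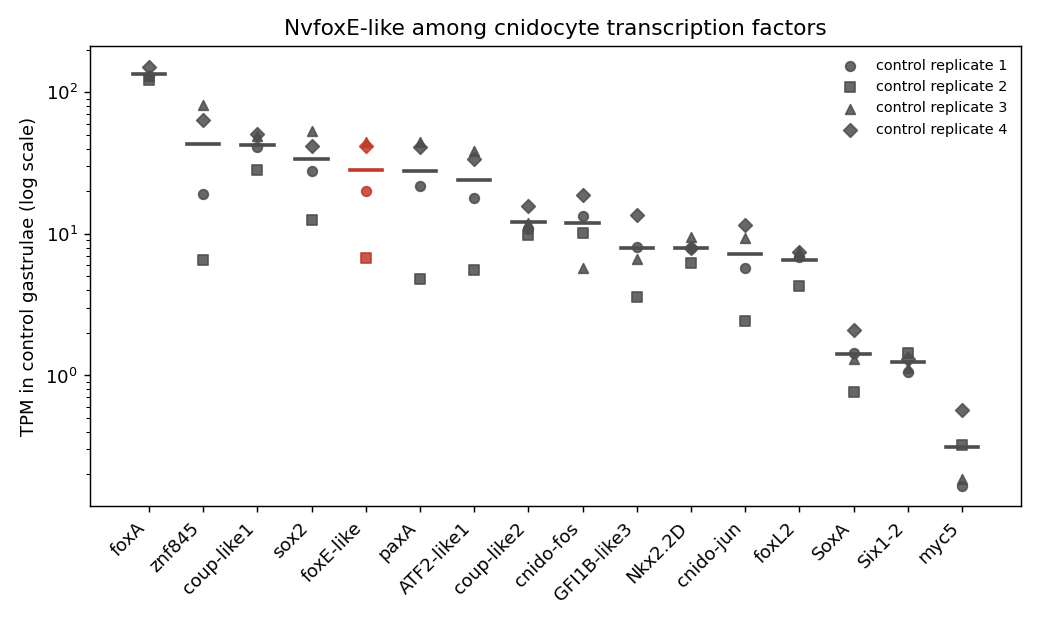
TPM in the 4 control pools (vertical axis, log scale) for the 16 transcription factor genes of the cnidocyte gene collection, ordered by their mean (horizontal bars). Symbols mark the control replicate. NvfoxE-like (red) is at place 5 with a mean of 28.2, and its lowest value, in replicate 2, is 6.78.

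The control pools themselves differed 2.95-fold in NvfoxE-like by CPM and 6.58-fold by TPM. Controls 3 and 4 were close to each other, and the level in replicate 2 was the lowest of the 4. The shRNA pools differed 2.119-fold by CPM and 4.13-fold by TPM, and again replicate 2 was lowest. The SD of log2 CPM over the control pools was 0.73 for NvfoxE-like, and the median over all genes tested was 0.62, with 59.7% of genes below NvfoxE-like. It was 0.96 for paxA and 1.15 for znf845. Over shRNA pools the SD of NvfoxE-like was 0.45 (median of all genes 0.60), and the median SD of the 4 same-numbered log2 ratios over all genes was 0.28, below the 0.35 of NvfoxE-like. A gene higher in both LA20_3 controls than in both LA19_2 controls, as NvfoxE-like was, is common here, since 37.0% of genes tested had that order and 37.1% the opposite one. Among the other 15 factors 5 were higher in both LA20_3 controls, including znf845 and paxA, and 5 were lower in both. The summed level of the 12 cnidocyte markers had the opposite order in the controls, with both LA20_3 pools below both LA19_2 pools. Marker by marker, the capsule genes ncol1, ncol3, ncol4, mcol1 and Ngal, 5 of the 12, had that order, 4 (znf845, paxA, sox2 and TX60B-like3) were higher in both LA20_3 controls as NvfoxE-like was, and 3 had neither order. The sum was 1831, 1916, 1195 and 1587 CPM in control replicates 1 to 4, and 1552, 1825, 729 and 1168 CPM in the shRNA pools, lower in all 4 pairs but with overlapping groups. Per 1000 CPM of summed markers, a measure added after the data had been seen, NvfoxE-like was at 7.04, 3.89, 15.8 and 12.9 CPM in the shRNA pools and at 16.2, 8.26, 38.1 and 29.5 CPM in the controls. The groups overlapped on this measure, and the exact permutation test gave p = 0.114 for a difference of -1.19 on the log2 scale.

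The fall of other genes was set beside NvfoxE-like replicate by replicate. On the log2 scale, with a prior count of 0.5, the ratio of NvfoxE-like to its own control was -1.44, -1.15, -1.98 and -1.63 in replicates 1 to 4. For each replicate, genes were first called lower in the blocked edgeR fit of the other 3 replicates and then measured in the replicate left out. Counting only genes also tested over all 8 libraries, these lists held 131, 235, 173 and 126 genes besides NvfoxE-like (calls in 0.688%, 1.23%, 0.93% and 0.669% of genes tested, NvfoxE-like included). Their median log2 ratios in the replicate left out were -1.31, -0.99, -1.49 and -1.42, and the medians of all genes tested were 0.02, 0.03, -0.01 and 0.0008. All 131 genes were below 0 in replicate 1, 91.9% in replicate 2, 97.1% in replicate 3 and 98.4% in replicate 4. The medians had the same order as NvfoxE-like, deepest in replicate 3 and least deep in replicate 2. Each median comes from a different list, and the medians of all genes, though only between -0.01 and 0.03, had this order too. The list measured in replicate 2 was also the longest.

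On a single list, the order was only partly the same. The 112 genes called lower in all 4 fits of 3 replicates had medians of -1.36, -1.38, -1.86 and -1.45. Replicate 3 was again deepest, but replicates 1 and 2 were level where NvfoxE-like was not. Of these 112 genes 61 (54.5%) had their lowest ratio in replicate 3, as did 30.4% of all genes tested, and 10 had all 4 ratios in the order of NvfoxE-like (8.93%, with 6.63% of all genes). These genes were chosen with all 4 replicates. With 4 pairs no correlation is given, and the relation of depth to fall was not tested.

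**Figure D4:**
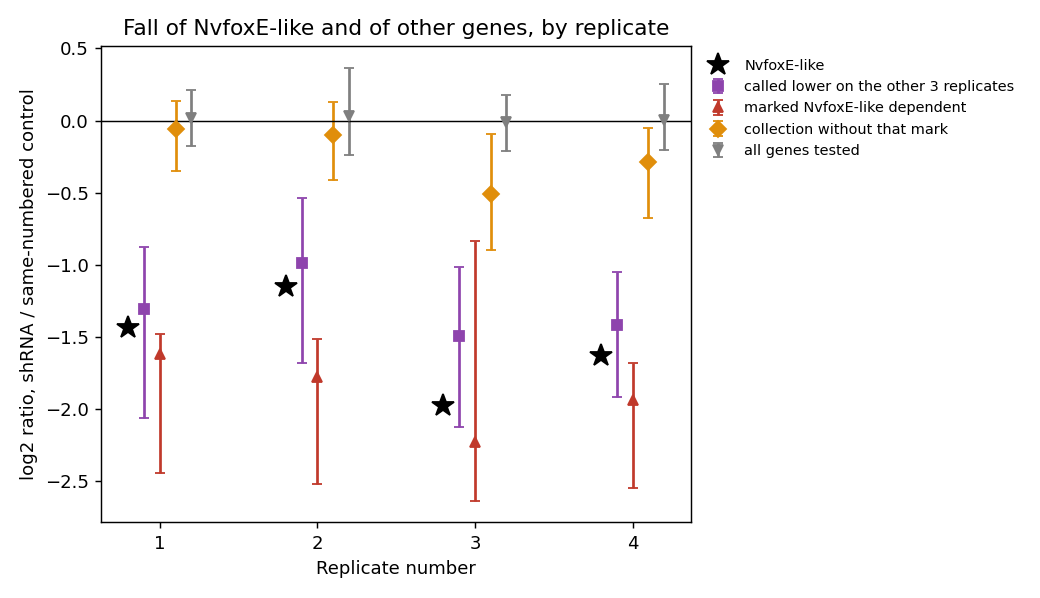
Log2 ratio of each shRNA pool to its same-numbered control (vertical axis) by replicate (horizontal axis). Stars are NvfoxE-like, other symbols are medians of the named gene lists and bars their quartiles. Genes called lower on the other 3 replicates follow the stars from -0.99 in replicate 2 to -1.49 in replicate 3, and all genes tested stay near 0.

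In the collection of cnidocyte genes, 33 besides NvfoxE-like were tested, of which 12 were called lower (1.07% of all genes) and 2 higher (0.211% of all genes) in the blocked fit and none in the unblocked one. Their median log2 ratios were -0.33, -0.39, -0.58 and -0.64 in replicates 1 to 4. The study marks 10 of them as dependent on NvfoxE-like. Those marks were made on these same libraries with a limit on p and on fold change. The direction, the size of fall and the calls of the 10 are therefore no independent evidence. Their medians were -1.62, -1.78, -2.23 and -1.94, below NvfoxE-like in each replicate, and 8 of the 10 were called lower with the block. The 23 genes without the mark had medians of -0.06, -0.10, -0.51 and -0.29, and 14 of them (60.9%) had their lowest ratio in replicate 3, as did 30.4% of all genes tested.

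In replicate 3, where the least NvfoxE-like remained, the marked genes were divided. Ncol, a minicollagen gene of the capsule wall, had ratios of -1.31, -1.61, -2.55 and -2.25 in replicates 1 to 4 and was called lower. NEP3-like, a relative of a nematocyte toxin gene, had -2.30, -1.22, -2.67 and -2.11 and was called lower as well. Both were lowest in replicate 3. The ratios of cnido-jun, a bZIP factor gene, were -1.49, -2.67, -2.28 and -1.72, lowest where NvfoxE-like was least reduced, and it was called lower. GFI1B-like3, of a zinc finger family, had the same feature with -2.50, -3.83, -2.18 and -2.65 and was called lower.

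Of the 10 marked genes 5 had their smallest fall in replicate 3, namely GFI1B-like3, NVE15733, cnido-fos, CALM3-like and SoxA. The bZIP factor gene cnido-fos had log2 ratios of -1.39, -1.51, 0.49 and -1.78 and was not called (adjusted p = 0.296 with the block in edgeR). Its control level was 3.10 CPM in replicate 3 and between 10.6 and 12.6 CPM in the other replicates, while the shRNA pools were at 3.24 to 4.41 CPM. CALM3-like had -1.60, -1.53, -0.39 and -1.67 and was called lower. Its control in replicate 3 was at 4.69 CPM, with 18.8 to 25.8 CPM in the other controls. SoxA, an HMG-box gene, had -1.47, -1.40, -0.07 and -1.17 and was not called (adjusted p = 0.0972). Its lowest control was replicate 3 with 7.47 CPM, and its highest shRNA pool was also replicate 3 with 7.12 CPM. The control pool of replicate 3 was the lowest control for 7 of the 10 marked genes, Ncol and NVE3843 included, whose ratios were lowest in that replicate. These were all 5 of the genes with their smallest fall in replicate 3 and 2 of the other 5. The control of NvfoxE-like in that pool was 45.5 CPM. NVE15733 and NVE3843 were called lower, with ratios from -3.56 to -1.62 over all replicates. The last marked gene, NVE15732, was called lower with 2.16 to 10.6 CPM in controls and 0.069 to 0.490 CPM in shRNA pools, where the lowest value is under 3 counts, so no ratio is given for it.

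Likeness to NvfoxE-like was measured as the root mean square difference of log2 CPM over all 8 libraries, each gene centred on its own mean. The 10 closest of 19001 genes differed by 0.234 to 0.380, the next by 0.395 and the median gene by 1.10. They were NV2.1257, NV2.15937, NV2.9510, NV2.3012, NV2.10528, NV2.20322, NV2.16612, NV2.11233, NV2.25184 and NV2.12532. None was in the cnidocyte collection, and the sources used here give them no name. All 10 were lower in the shRNA pool of 4 of 4 pairs, as were 10.1% of all genes tested. In the blocked fit 8 were called lower, as were 1.07% of all genes. The choice by likeness to a lowered gene already favours both. NV2.3012, at only 0.208 to 0.900 CPM over the 8 libraries, was not called. The blocked log2 fold changes of the 10 lay between -1.74 and -0.93.

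The closest gene, NV2.1257, measured 6.04, 3.49, 4.37 and 5.88 CPM in shRNA replicates 1 to 4 and 12.7, 5.91, 16.2 and 15.4 CPM in the controls. Here shRNA replicate 1 was above control replicate 2, so the groups overlapped. The one of highest level, NV2.11233, measured 23.7, 9.92, 28.3 and 41.9 CPM in shRNA pools and 56.6, 29.1, 157.6 and 116.8 CPM in controls. Its ratio was lowest in replicate 3, as in 7 of the 10, which the choice by likeness also favours, and in 30.4% of all genes tested. Within the collection, cnido-jun was closest at place 25, followed by NVE13546 at 52, NEP3-like at 61 and SoxA at 105. ATF2-like1 was at place 419, paxA at 1575 and znf845 at 5513, and none of these 3 genes was called.

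**Figure D5:**
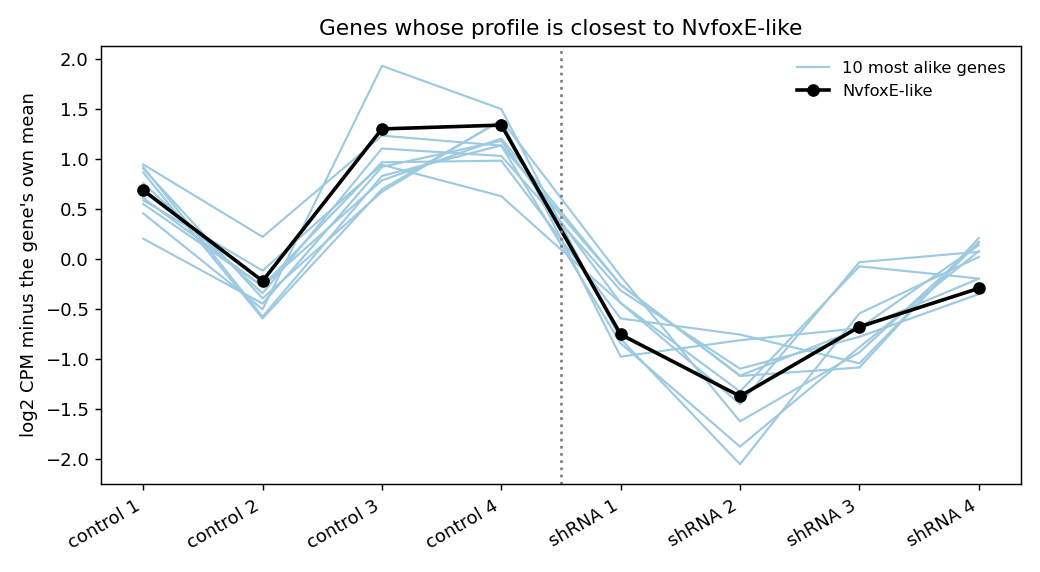
Log2 CPM minus the gene's own mean (vertical axis) in the 8 libraries (horizontal axis) for NvfoxE-like (black) and the 10 genes of closest profile (light blue). The dotted line divides control from shRNA libraries. Control replicate 2 is the lowest control in each profile, and in 9 of the 10 genes at least 1 shRNA pool lies above it. The 10 profiles have root mean square differences from NvfoxE-like of 0.234 to 0.380.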

How the data were processed

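The authors quantified 150 bp paired-end reads with Salmon against Nematostella transcripts and deposited 1 table per library. Its estimated counts, as deposited, are expected reads per transcript that need not be whole, and they were summed per gene and rounded here. The deposited TPM were made by Salmon within each library. The sources used here give neither the version nor the strand and bias settings of Salmon. All samples had an RNA integrity number of at least 8.0 per the labels. Deposited transcript lengths were used as given.

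Totals of 18656270 to 26073612 estimated counts put 3 counts at 0.104 to 0.184 CPM. Genes passing filterByExpr at a minimum count of 10 were tested with edgeR 4.0.16 (R 4.3.3), TMM scaling and no covariate. DESeq2 1.42.0, the replicate block, other scalings and filters, and leaving out replicates or libraries were alternatives. Calls needed an adjusted p of at most 0.05 and an absolute log2 change of 0.585 or more. Exact tests used scipy 1.17.1. The edgeR fits of genes with and without the block were tested on simulated counts with known folds. Both returned the fold sizes, but only the blocked fit made calls. The simulated counts were built with an effect shared by same-numbered libraries and with the dispersions of the blocked fit, which favours the block. They cannot show whether the real pools are paired by number. The DESeq2, transcript and interaction fits were not tested this way.

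The members and lists were chosen with earlier results of these data known. The text names NvfoxE-like, the factors of the collection, its marked genes per replicate, and the 10 genes of closest profile. The study's methods describe the experimental and control replicates as paired, and libraries were treated here as paired by number. Same-numbered libraries deviated together from their group means (r = 0.35, 0.79, 0.78 and 0.63). For 2 of the 4 shRNA libraries the own-numbered control had the highest r. For shRNA replicate 1 it was control replicate 2 (0.42), and for shRNA replicate 4 control replicate 3 (0.641 against 0.634). Both are of the same prefix, so these r do not tell pairing by number from the prefix. Nothing in the labels says that pools came from separate spawnings, so p-values measure the spread between these pools. The RefSeq gene table matched 0 identifiers, so no coordinates or sequences are given.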

Additional observations from a re-analysis of the deposited data

Results flagged for a closer look

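Of 33 sets of 4 values checked for a value far from the other 3, 3 were found, and chance gives about 1 in 20. All 3 concern replicate 3, where NvfoxE-like was lowest relative to its control. They are ratios over the same 4 pairs of libraries, so they are not 3 separate observations. For CALM3-like and cnido-fos, control replicate 3 was also the lowest control, at 4.69 and 3.10 CPM. The median log2 ratio of the 112 genes called lower in all fits of 3 replicates was -1.86 there, with -1.45 to -1.36 in the other replicates. Its gap to the nearest value was 0.830 of the range, only just past the limit used, and over genes of at least 5 CPM it was 0.637, under that limit. The log2 ratio of CALM3-like was -0.39 in replicate 3, with -1.67 to -1.53 elsewhere. That of cnido-fos was 0.49 in replicate 3, with -1.78 to -1.39 elsewhere. The gap of cnido-fos, 0.831 of the range, was also only just past the limit. The cause was not tested.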

How the results depend on the processing

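NvfoxE-like was lower in shRNA pools under every setting run, and the choice of pairing set the call. Its log2 fold change of -1.63 was not called by unblocked edgeR (0 genes lower and 0 higher), but was called with the replicate block at -1.57 (203 lower, 40 higher) and by DESeq2 with the block at -1.56 (262 lower, 66 higher; NvfoxE-like adjusted p = 5.41e-19). Unblocked DESeq2 gave -1.62 with an adjusted p of 0.0638 (47 lower, 9 higher). The blocked call held in each fit of 3 replicates, with log2 fold changes of -1.69 to -1.43 and adjusted p of 0.000128 to 0.00996. At the transcript level the block did not change the call.

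For the exact test of the level, the difference of -1.55 lost p of at most 0.05 in the paired sign-flip test (-1.55, p = 0.125, the smallest possible), in TPM (-1.44), by library totals (-1.52), as the ratio to znf845 (-1.56) and per summed marker level (-1.19), the last 3 added after seeing the data. Per summed marker level the remaining share lay above its counting interval in replicates 1, 3 and 4, at 43.4%, 41.5% and 43.7%. Without 1 replicate the difference in log2 CPM was -1.69 to -1.41, where 0.10 is the smallest p possible. Of 150 alternative values in all, 131 were labelled the same, 9 weaker, 2 stronger and 8 moved. That label does not mean an equal value. The prefix difference of -0.46 kept it at -0.99 without control replicate 1 and at -0.08 without control replicate 2. Of the 8 that moved, the others were the medians of all genes by library totals, which stayed within 0.075 of 0, and the median of the 112 genes in replicate 3, which was -1.52 over genes of at least 5 CPM. The alternatives for the share of transcripts could not be run with 1 transcript. Counts of 116 to 1175 limit each level by counting error alone to the intervals given.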
